A study of Mus musculus with 2 samples.

Results

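The spots described here are 324 of the 5352 spots with at least 5000 UMIs (unique molecular identifiers, each standing for 1 captured RNA molecule) in 2 mouse brain sections. They were chosen by 2 genes, Tcf7l2 and Prkcd: the level of Tcf7l2 was at least 3 and that of Prkcd under 2 UMIs per 10000 UMIs of the spot. They are called low-Prkcd spots below, and 245 lay in section 1 and 79 in section 2. They were set against 248 Prkcd-high spots (174 in section 1 and 74 in section 2), which had the same minimum of Tcf7l2 and a Prkcd level of at least 5. They were also set against the remaining 4780 spots (2432 and 2348), called all other spots, of which 80 reached the Tcf7l2 minimum with a Prkcd level from 2 to under 5.

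Expression was measured with 10x Visium, in which RNA from a section laid on an array is captured by barcoded spots, each collecting from a small patch of tissue with several cells or parts of them. Both sections came from fresh-frozen brain of wild-type C57BL/6 mice, were 10 µm thick and carried the label ZT12, and neither had a treatment or another genotype. The labels number them as replicates 1 and 2 but do not say whether they came from separate animals, and give neither age nor sex. The fits below had a term for the section. Their p-values therefore rest in part on how far differences between kinds of spot varied across 2 sections, and this variation may be technical. The larger part of the spread, with 12.61 degrees of freedom against 2, came from a prior estimated over all genes. All 3 kinds of spot were taken from the same 2 sections.

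Tcf7l2 is a transcription factor that acts with β-catenin at the end of the Wnt pathway. In the rodent brain it marks neurons of the thalamus, habenula and pretectum, and it is also made by oligodendrocytes as they mature. Prkcd encodes protein kinase C delta, which in mouse forebrain is abundant in relay neurons of the sensory thalamus. The thalamus sends excitatory fibres to the cortex, the habenula links the forebrain with monoamine cell groups of the brainstem, and the pretectum, which receives input from the retina, holds many inhibitory neurons.

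The files list 32285 genes, with 58662871 UMIs over 3167 spots in section 1 and 55851559 UMIs over 2533 spots in section 2. Low-Prkcd spots had a median of 19875 and 18440 UMIs in sections 1 and 2, Prkcd-high spots 19175 and 21035, and all other spots 18587.5 and 21798.5. The share of UMIs from mitochondrially encoded genes had a median of 15.1% and 13.9% in low-Prkcd spots and of 15.2% and 14.4% in Prkcd-high spots. The sections shared 1965 spot barcodes, none with identical counts, and 2 barcodes were low-Prkcd spots in both.

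Low-Prkcd spots made up 8.59% of the spots of section 1 (exact 95% binomial interval 7.59 to 9.68%) and 3.16% of those of section 2 (2.51 to 3.92%), and these intervals cover counting error only. The values that chose the spots are given as a description. Tcf7l2 (chr19:55741797-55933659, GRCm38.p6) had a median of 4.36 and 3.83 UMIs per 10000 in low-Prkcd spots, 4.41 and 3.71 in Prkcd-high spots and 0.591 and 0.528 in all other spots. Prkcd (chr14:30595353-30626414) had a median of 0.5004 and 0.649 in low-Prkcd spots, 11.5 and 8.97 in Prkcd-high spots and 0.584 and 0.757 in all other spots. The Prkcd level of the low-Prkcd spots was thus close to that of all other spots, and 82 and 18 of them (33.5% and 22.8%) had no Prkcd UMI.

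Many of the low-Prkcd spots lay near the thresholds. Their lowest Tcf7l2 level was 3.002 in section 1 and 3.02 in section 2, and 95 and 45 spots had a level from 3 to under 4. Just outside, 158 and 106 spots with Prkcd under 2 had a Tcf7l2 level from 2 to under 3, the highest of 2.99 and 2.98. The highest Prkcd level among low-Prkcd spots was 1.89 and 1.84, and the lowest just outside was 2.003 and 2.06. A low-Prkcd spot held a median of 9 and 7 Tcf7l2 UMIs, and as few as 2 in each section.

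**Figure D1:**
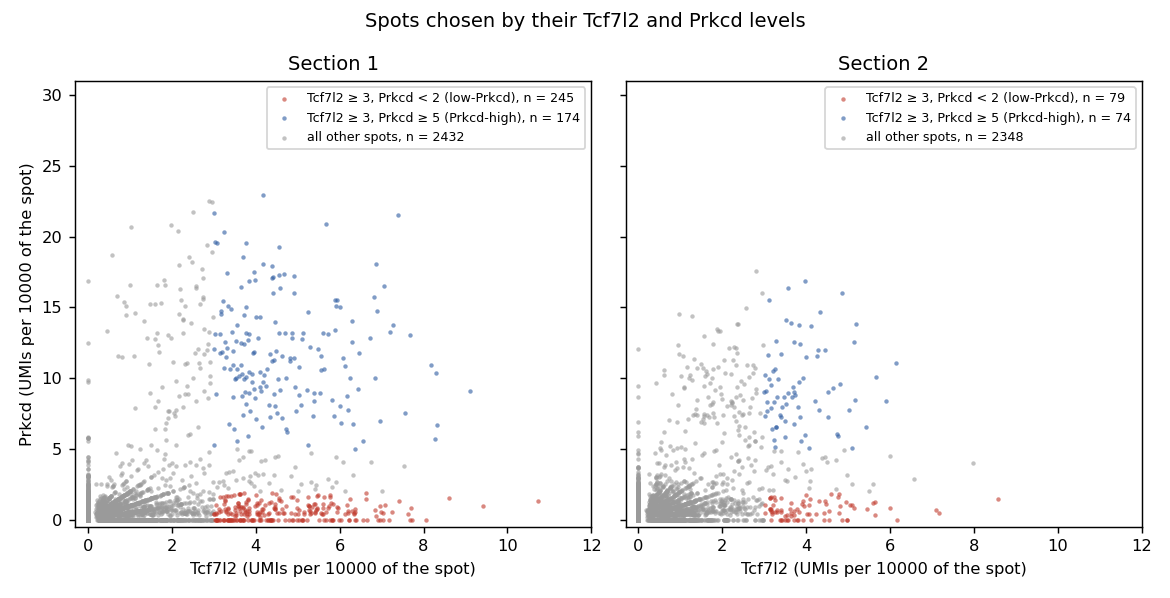
Tcf7l2 (horizontal) against Prkcd (vertical) in each spot of section 1 (left) and section 2 (right), in UMIs per 10000 of the spot. Points are the 245 and 79 low-Prkcd spots, the 174 and 74 Prkcd-high spots and all other spots; the classes do not overlap because these 2 genes defined them.

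For tests, UMIs were summed over the spots of each class in each section, which gave 6 sums. Each gene is reported in CPM, its UMIs per 1000000 UMIs of the sum, section 1 first. Changes are log2 fold changes (low-Prkcd over the class named) ± SE from edgeR's quasi-likelihood test with a term for the section. A gene was called where its p, adjusted by Benjamini-Hochberg over 13035 genes, was under 0.05; Tcf7l2 and Prkcd were left out. In such sums, fewer cells of a type and less RNA per cell cannot be told apart.

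The name thalamic was checked against 13 genes shared by thalamic relay neurons, and the low-Prkcd spots held most of them near the level of all other spots. All 12 that were called against Prkcd-high spots fell, with a median log2 change of -2.22 over the 13, where the median over all tested genes was 0.003. Prkcd, itself abundant in relay neurons, separated these 2 classes, so this fall was not independent of the rule. Among all 13035 genes, 921 (7.07%) were called lower and 662 (5.08%) higher. Tnnt1, a slow-muscle troponin that is also made in thalamus, was at 33.8 and 79.0 CPM in low-Prkcd spots, against 316 and 463 CPM in Prkcd-high spots and 37.9 and 69.1 CPM in all other spots. Both low-Prkcd sums lay far below both Prkcd-high sums and beside those of all other spots, and the change against Prkcd-high spots was -2.98 ± 0.12 (adjusted p = 1.1e-09).

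Plekhg1, a regulator of small GTPases (chr10:3740251-3967303), had 24.5 and 37.5 CPM in low-Prkcd spots, against 249 and 210 CPM in Prkcd-high spots and 31.3 and 31.6 CPM in all other spots. It fell by 3.11 ± 0.14 relative to Prkcd-high spots (adjusted p = 1.7e-09), the largest fall among the genes named. Ramp3, a partner of calcitonin-family receptors, had 44.0 and 68.5 CPM in low-Prkcd spots against 326 and 325 CPM in Prkcd-high spots (-2.68 ± 0.14, adjusted p = 1.1e-08). Rora, a nuclear receptor of relay neurons, had 81.0 and 58.6 CPM against 355 and 201 CPM (-2.07 ± 0.10, adjusted p = 4.0e-09). Lef1, the partner of Tcf7l2 in its family, had 9.96 and 16.5 CPM against 63.6 and 59.2 CPM (-2.43 ± 0.21, adjusted p = 1.4e-06).

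Against all other spots, 3 of these 13 genes were called higher and none lower, and the median log2 change was 0.17 beside 0.006 over all tested genes. In that comparison 376 genes (2.88%) were called higher and 580 (4.45%) lower. The 3 were transcription factors of the developing thalamus, Gbx2 and Shox2, and Amotl1, a junction protein. Gbx2 had 11.0 and 29.6 CPM in low-Prkcd spots, against 26.7 and 21.3 CPM in Prkcd-high spots and 3.44 and 6.30 CPM in all other spots, a log2 change of 1.91 ± 0.29 over all other spots (adjusted p = 6.4e-04). It did not pass the test against Prkcd-high spots (-0.65 ± 0.30, adjusted p = 0.22). Shox2 had 41.5 and 43.5 CPM in low-Prkcd spots, 84.3 and 88.4 CPM in Prkcd-high spots and 14.3 and 15.6 CPM in all other spots, so it lay between the other classes (1.53 ± 0.11 over all other spots, adjusted p = 2.5e-06). Amotl1 (0.42 ± 0.11, adjusted p = 0.028) lost its call without the section 1 sum of low-Prkcd spots (0.43, adjusted p = 0.18), and was at -0.12 after each spot was thinned to 5000 UMIs.

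In single spots the summed level of the 13 genes showed the same. It lay above the 95th percentile of all other spots of the section in 10 low-Prkcd spots of section 1 (4.08%) and 2 of section 2 (2.53%), beside 158 (90.8%) and 59 (79.7%) Prkcd-high spots. By construction 5% of all other spots lie above it. That percentile, 18.2 and 20.9 UMIs per 10000, was near the 10th percentile of Prkcd-high spots (18.6 and 19.2). It was a strict cut for spots chosen for low Prkcd, so the shares alone do not decide on the name thalamic. The name is not used because most of the 13 genes lay near the level of all other spots. The spots are called by the rule that chose them.

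Beyond the thalamic list, the comparison with Prkcd-high spots called 276 genes (2.12%) at least 2-fold lower and 181 (1.39%) at least 2-fold higher. Without the section 1 sum of low-Prkcd spots it called 837 genes in all in place of 1583, with 104 at least 2-fold higher. Gabrd, the delta subunit of extrasynaptic GABA-A receptors, had 40.5 and 51.4 CPM in low-Prkcd spots against 251 and 232 CPM in Prkcd-high spots (-2.52 ± 0.11, adjusted p = 1.6e-09). Zic1, a zinc-finger transcription factor, had 51.9 and 27.7 CPM against 260 and 201 CPM (-2.51 ± 0.11, adjusted p = 1.7e-09). The phosphatases Ptpn3 (-2.60 ± 0.15), Ptpn4 (-2.21 ± 0.11) and Pdp1 (-2.27 ± 0.08), the actin-binding Synpo2 (-2.53 ± 0.21) and the apoptosis regulator Bok (-2.16 ± 0.13) fell as well, each with both low-Prkcd sums below both Prkcd-high sums.

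Among the more abundant genes, Cbln2 rose the most relative to Prkcd-high spots and is described with the genes raised in both comparisons. Doc2a, a calcium sensor of spontaneous release, had 54.2 and 48.7 CPM in low-Prkcd spots against 15.6 and 14.0 CPM in Prkcd-high spots (1.75 ± 0.16, adjusted p = 1.9e-06). Tac1, which encodes substance P and neurokinin A, had 82.8 and 96.8 CPM against 15.01 and 49.9 CPM (1.75 ± 0.27, adjusted p = 3.2e-04). Syt2, the fast calcium sensor of large, fast-firing terminals, had 223 and 127 CPM against 61.8 and 45.2 CPM (1.71 ± 0.10, adjusted p = 3.7e-08). Baiap3, a protein of dense-core vesicle traffic (1.59 ± 0.15), Plcxd2 (1.49 ± 0.16), the transcriptional cofactor Ldb2 (1.49 ± 0.18), Tmem91 (1.42 ± 0.15) and Lgi2, a secreted synaptic protein (1.36 ± 0.17), also rose.

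A smaller set of genes marked the low-Prkcd spots on both sides. At least 2-fold higher levels than in Prkcd-high spots and than in all other spots were called for 24 genes (0.184% of those tested), where 34 (0.261%) were at least 2-fold higher than all other spots and 123 (0.944%) at least 2-fold lower. Both comparisons use the same low-Prkcd sums and are not independent. Cbln2, a secreted organizer of synapses, led them. It had 115 and 112 CPM in low-Prkcd spots, against 18.01 and 18.6 CPM in Prkcd-high spots and 32.4 and 20.6 CPM in all other spots. Its change was 2.61 ± 0.19 over Prkcd-high spots (adjusted p = 2.4e-07) and 2.07 ± 0.12 over all other spots (adjusted p = 1.9e-07). A Cbln2 UMI was seen in 73.5% and 70.9% of low-Prkcd spots, beside 28.2% and 31.1% of Prkcd-high spots and 40.3% and 32.2% of all other spots.

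Several of the 24 encode transcription factors of the diencephalon and midbrain. Lhx9 (chr1:138825186-138848839), a LIM-homeodomain factor, had 48.2 and 33.6 CPM in low-Prkcd spots, 19.8 and 16.6 CPM in Prkcd-high spots and 10.7 and 12.6 CPM in all other spots. Its change was 1.18 ± 0.21 over Prkcd-high spots (adjusted p = 0.0015) and 1.93 ± 0.16 over all other spots (adjusted p = 4.5e-06). Irx2, an Iroquois homeodomain factor, had 25.3 and 11.2 CPM in low-Prkcd spots, 7.204 and 3.99 CPM in Prkcd-high spots and 9.98 and 4.59 CPM in all other spots (1.71 ± 0.26 and 1.35 ± 0.16).

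Others encode secreted proteins, proteins of the cell surface and receptors. Tpbg (chr9:85842380-85847057), a leucine-rich membrane protein, had 65.0 and 25.7 CPM in low-Prkcd spots, 6.90 and 5.98 CPM in Prkcd-high spots and 16.2 and 12.3 CPM in all other spots. Its change was 2.94 ± 0.28 over Prkcd-high spots (adjusted p = 4.2e-06) and 1.78 ± 0.16 over all other spots (adjusted p = 6.7e-06), and the level in section 1 was well above that in section 2. Sema3f, a secreted axon guidance cue, had 32.6 and 27.0 CPM in low-Prkcd spots, 7.204 and 4.65 CPM in Prkcd-high spots and 11.3 and 9.54 CPM in all other spots (2.22 ± 0.23 and 1.53 ± 0.14). The 10 largest also included Nxph4, a neurexin ligand, Glra3, a glycine receptor subunit, P2ry1, a purine receptor, and Calb2, which encodes calretinin.

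Calb2 was the most abundant of the 24. It had 269 and 420 CPM in low-Prkcd spots, against 153 and 121 CPM in Prkcd-high spots and 153 and 141 CPM in all other spots, with 1.16 ± 0.16 and 1.17 ± 0.13 (adjusted p = 1.4e-04 and 3.9e-05). The set depended on the section: without the low-Prkcd sum of section 1, 11 genes reached both folds, 8 of them among the 24, and without that of section 2 there were 43, 21 of them among the 24. With a Tcf7l2 minimum of 5 there were 22, of which 10 were among the 24, and after thinning to 5000 UMIs 4. Without section 1 the change of Lhx9 over Prkcd-high spots was 0.68 in place of 1.18. Over all other spots Nxph4 was at 0.74 in place of 1.48 and Irx2 at 1.28 in place of 1.35. Glra3 was at 0.53 in place of 1.22 and P2ry1 at 0.93 in place of 1.11.

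**Figure D2:**
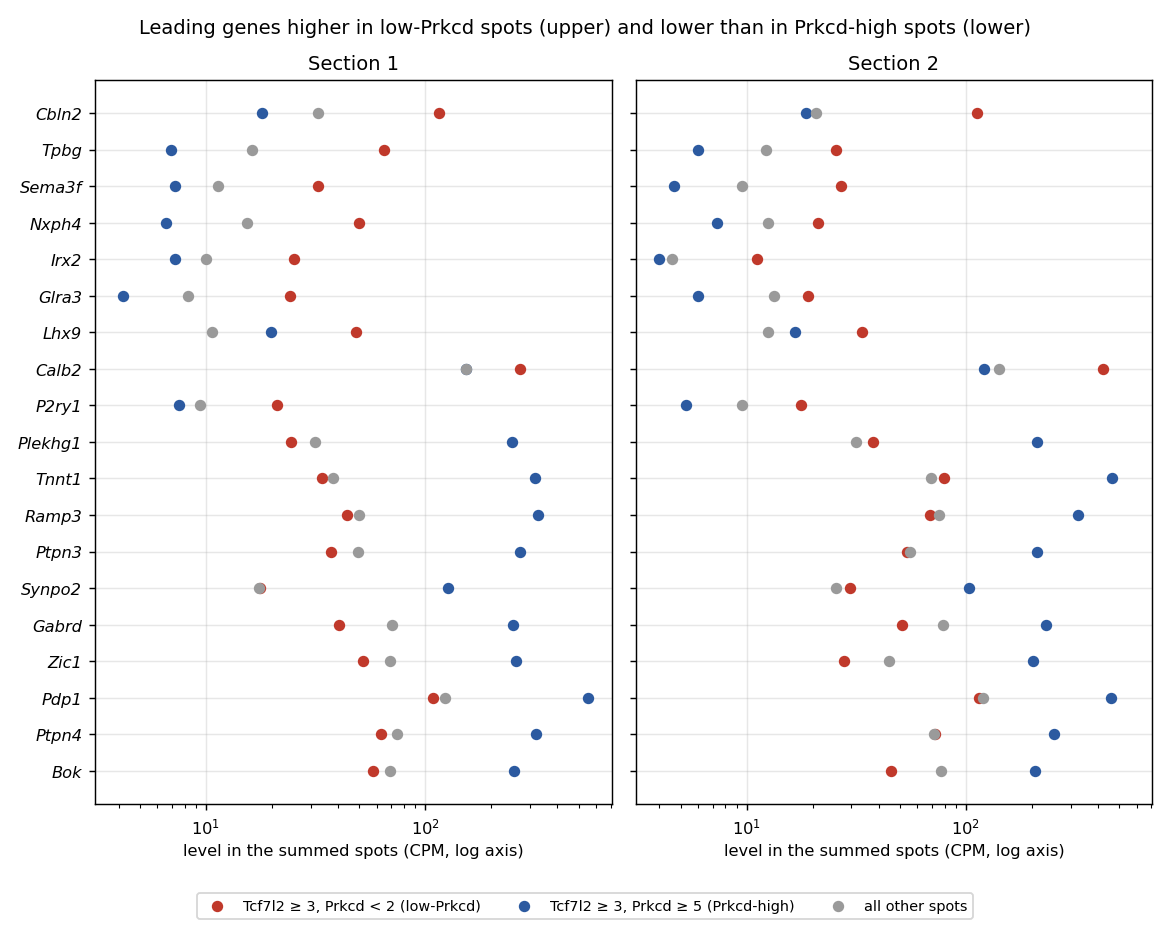
Level in the summed spots (CPM, logarithmic axis) of leading genes called at least 2-fold higher in both comparisons (upper, Cbln2 to P2ry1) and of the 10 largest falls relative to Prkcd-high spots (lower, Plekhg1 to Bok), in section 1 (left) and section 2 (right). In the upper genes the low-Prkcd point lies right of the other points in both sections, and in the lower genes the Prkcd-high point lies right of the low-Prkcd point. Of the lower genes, Gabrd (log2 change -0.74) and Zic1 (-0.44) were also lower in low-Prkcd spots than in all other spots.

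Several genes of the pretectum and superior colliculus were higher in low-Prkcd spots. Of 10 such genes 8 were tested, and 5 were called higher in each comparison and none lower, with a median log2 change of 1.90 over Prkcd-high spots and 1.07 over all other spots. All 5 are transcription factors of developing diencephalon and midbrain, and all were sparse. Tal1 had 13.7 and 17.1 CPM in low-Prkcd spots, 2.40 and 3.99 CPM in Prkcd-high spots and 6.68 and 4.65 CPM in all other spots (2.28 ± 0.41, adjusted p = 0.0012, and 1.33 ± 0.23, adjusted p = 0.0017). Otx2 had 10.2 and 10.5 CPM in low-Prkcd spots, 3.30 and 3.99 CPM in Prkcd-high spots and 5.50 and 6.997 CPM in all other spots (1.52 ± 0.35, adjusted p = 0.0081, and 0.81 ± 0.21, adjusted p = 0.027).

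The other 3 rested on few UMIs, so their ratios to Prkcd-high spots are given over both sections with 95% intervals of counting error. Gata3 had 51 UMIs in low-Prkcd spots against 4 in Prkcd-high spots, a ratio per UMI of 9.73 (3.58 to 37.1). Sox14 had 50 UMIs against 5, a ratio of 7.63 (3.06 to 24.5), and Pou4f2 had 24 against 2, a ratio of 9.16 (2.27 to 79.9). Against all other spots Gata3 changed by 1.66 ± 0.30 (adjusted p = 0.0027), Sox14 by 1.75 ± 0.29 (adjusted p = 0.0012) and Pou4f2 by 1.86 ± 0.41 (adjusted p = 0.010). Without the section 1 sum of low-Prkcd spots 2 of the 7 genes then tested were called higher in each comparison, and Pou4f2 fell below the filter. Pax7, a factor of the tectum, was not tested, with 1.87 and 1.32 CPM in low-Prkcd spots and 2.56 and 1.69 CPM in all other spots.

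Among single spots, 23 low-Prkcd spots of section 1 (9.39%) and 10 of section 2 (12.7%) lay above the 95th percentile of all other spots for the summed pretectal and collicular genes, where 1 Prkcd-high spot did in each section. With every spot thinned to 5000 UMIs before the rule was applied, 1.85% and 4.72% of the low-Prkcd spots then chosen did, beside 2.69% and 1.68% of all other spots. No excess was then seen in section 1, where 4 of 216 low-Prkcd spots lay above a cut of 2 UMIs per 10000. Counts this low cannot show whether an excess remained.

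Habenular genes were mixed. Of the 14 genes of the medial habenula 8 had enough UMIs to be tested, and 3 were called higher and 2 lower than in all other spots, while 2 were higher than in Prkcd-high spots. Leaving out the section 1 sum, 2 of 10 tested were higher and none lower than in all other spots, and without that of section 2 there were 4 of 12 higher than in Prkcd-high spots. Those that rose over all other spots, Calb2, Tac1 (0.70 ± 0.17, adjusted p = 0.018) and the matrix protein Spon1 (0.48 ± 0.08, adjusted p = 0.0018), are not limited to that nucleus, and Tac1 was at 82.8 and 96.8 CPM in low-Prkcd spots, 15.01 and 49.9 CPM in Prkcd-high spots and 38.6 and 93.0 CPM in all other spots. Without section 1 the change of Tac1 over all other spots was 0.04 (adjusted p = 0.96). Tac2, which encodes neurokinin B and is strong in the medial habenula, had 7.26 and 12.5 CPM in low-Prkcd spots and 16.6 and 21.0 CPM in all other spots (-1.01 ± 0.18, adjusted p = 0.0023, and -0.74, adjusted p = 0.29, without section 1). Several other genes of the medial habenula list were sparse and not tested. Chat had 0.208 and 1.32 CPM, Chrnb4 1.45 and 0, Chrna3 1.66 and 3.95, and Pou4f1 5.40 and 1.32 CPM in low-Prkcd spots.

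Of 5 genes of the lateral habenula 3 were tested and 2 were called higher in both comparisons, both broadly expressed. The serotonin receptor gene Htr2c had 56.0 and 57.3 CPM in low-Prkcd spots, 24.3 and 28.6 CPM in Prkcd-high spots and 33.3 and 43.0 CPM in all other spots (1.10 ± 0.15, adjusted p = 1.3e-04, and 0.65 ± 0.10, adjusted p = 8.3e-04). Gap43, a protein of growing axons, had 374 and 446 CPM in low-Prkcd spots, 282 and 268 CPM in Prkcd-high spots and 268 and 345 CPM in all other spots (0.49 ± 0.09 and 0.44 ± 0.08). Without section 1 the call of Htr2c over all other spots was lost (0.43, adjusted p = 0.28). The orphan receptor gene Gpr151, which defines the nucleus, had 0.415 and 0 CPM in low-Prkcd spots, and Htr5b had 0 and 0.658 CPM.

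Even so, 31 low-Prkcd spots of section 1 (12.7%) and 23 of section 2 (29.1%) lay above the 95th percentile for the medial habenula list, and 29 (11.8%) and 21 (26.6%) did for the list of the midline and higher-order thalamus. These were largely the same spots, 23 and 18 of which were above both, and Calb2 belongs to both lists. Calb2 made up most of both sums. It had 269 and 420 CPM in low-Prkcd spots, where the medial habenula list summed to 482 and 661 CPM and the midline list to 432 and 625 CPM. In all other spots Calb2 had 153 and 141 CPM, and the lists summed to 313 and 366 CPM and to 337 and 340 CPM. Shares without Calb2 were not computed. After thinning to 5000 UMIs the shares of low-Prkcd spots were 5.56% and 5.66% for the medial habenula list, beside 3.53% and 2.75% of all other spots. They were 5.56% and 10.4% for the midline list, beside 4.22% and 4.30%. With a Prkcd level under 1 they were 7.98% and 32.1% for the medial habenula list and 7.45% and 32.1% for the midline list. Of the 5 midline genes tested, 2 were higher and 1 lower than in Prkcd-high spots, and 1 was higher than in all other spots. Leaving out the section 1 sum, none was lower than in Prkcd-high spots, and leaving out that of section 2, with 6 tested, 3 were higher and 2 lower than in Prkcd-high spots and 2 higher and 1 lower than in all other spots. Hcrtr1, an orexin receptor, had 6.64 and 8.56 CPM in low-Prkcd spots, 1.80 and 1.33 CPM in Prkcd-high spots and 4.04 and 4.59 CPM in all other spots (2.07 ± 0.46 over Prkcd-high spots, adjusted p = 0.0070). Calb1, which encodes calbindin, had 82.4 and 128 CPM in low-Prkcd spots, 135 and 127 CPM in Prkcd-high spots and 120 and 126 CPM in all other spots. Its call against Prkcd-high spots (-0.49 ± 0.13, adjusted p = 0.021) rested on section 1, without which it was -0.12 (adjusted p = 0.77).

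In the list of the reticular thalamus and zona incerta, whose neurons are inhibitory, the homeodomain factor Six3 had 38.4 and 38.8 CPM in low-Prkcd spots, 10.8 and 18.6 CPM in Prkcd-high spots and 19.1 and 26.8 CPM in all other spots (1.51 ± 0.21, adjusted p = 1.2e-04, and 0.86 ± 0.13, adjusted p = 6.3e-04). Of the 9 genes of that list 3 were called higher and 1 lower than in Prkcd-high spots, and 1 higher and 3 lower than in all other spots. Without section 1, 1 was higher and 1 lower than in Prkcd-high spots, none was higher and 2 were lower than in all other spots, and Six3 lost its call over all other spots (0.53, adjusted p = 0.26). Without section 2, 3 were higher than in all other spots. In the subthalamic and mammillary list 1 of 3 genes was called, Barhl1, a homeodomain factor of subthalamic and mammillary neurons. It had 19.7 and 7.90 CPM in low-Prkcd spots, 2.70 and 1.33 CPM in Prkcd-high spots and 4.76 and 3.11 CPM in all other spots (2.77 ± 0.39 and 1.90 ± 0.22), with 107 UMIs against 11 in Prkcd-high spots. Over all other spots it was not called without section 1 (1.36, adjusted p = 0.26).

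Of 7 genes of midbrain dopamine neurons 6 were tested. Of these, 2 were higher than in Prkcd-high spots and 1, Aldh1a1, was higher than in all other spots (log2 change 0.47). Th, the rate-limiting enzyme of catecholamine synthesis, had 14.5 and 9.22 CPM in low-Prkcd spots, 2.10 and 1.99 CPM in Prkcd-high spots and 10.5 and 4.85 CPM in all other spots (2.58 ± 0.39 over Prkcd-high spots, adjusted p = 3.2e-04). The dopamine transporter gene Slc6a3 had 18.9 and 3.29 CPM in low-Prkcd spots, 5.40 and 0.665 CPM in Prkcd-high spots and 14.3 and 1.88 CPM in all other spots (1.79 ± 0.31, adjusted p = 0.0011). Without section 1 its call was lost (2.16, adjusted p = 0.15), and in spots with a Tcf7l2 level of at least 5 the change was -0.33. Of the 5 hypothalamic genes tested Baiap3 alone was higher in each comparison, and 2 were lower than in all other spots, and none was lower without section 1.

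**Figure D3:**
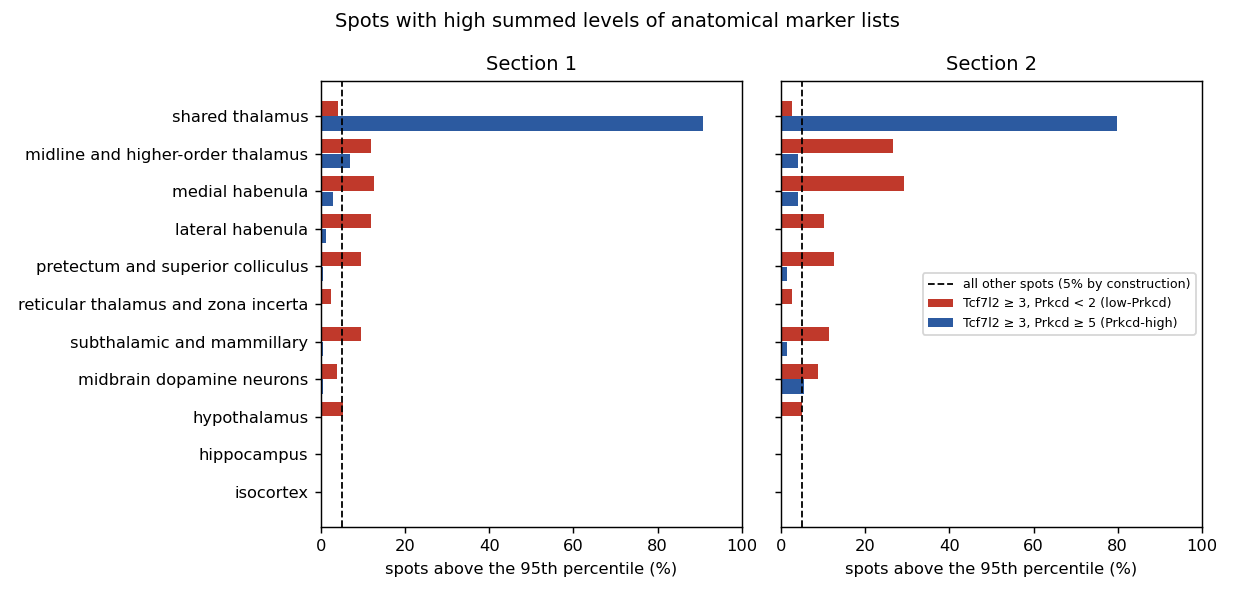
Share of spots (%, horizontal) whose summed level of an anatomical gene list lay above the 95th percentile of all other spots of the section, for low-Prkcd spots (upper bar) and Prkcd-high spots (lower bar) in section 1 (left) and section 2 (right); the dashed line marks the 5% of all other spots set by construction. The shared thalamus list was high in 4.08% and 2.53% of low-Prkcd spots and in 90.8% and 79.7% of Prkcd-high spots.

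None of the 11 anatomical lists was high in most of the low-Prkcd spots. Over these lists, 129 spots of section 1 (52.7%) and 29 of section 2 (36.7%) lay above the percentile for none, and 80 (32.7%) and 24 (30.4%) for exactly 1. The same counts were not made for the other classes. Since 5% of all other spots lie above each list's percentile by construction, these shares are not read as particular to low-Prkcd spots. No low-Prkcd spot and no Prkcd-high spot lay above it for the isocortex or hippocampus lists.

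In transmitter genes the low-Prkcd spots combined excitatory and inhibitory markers. Slc17a6, which encodes the vesicular glutamate transporter of subcortical neurons, had 172 and 143 CPM in low-Prkcd spots, 237 and 193 CPM in Prkcd-high spots and 80.4 and 80.2 CPM in all other spots. It was lower than in Prkcd-high spots (-0.49 ± 0.09, adjusted p = 0.0017) and higher than in all other spots (1.003 ± 0.082, adjusted p = 4.7e-06). Slc17a7, the transporter gene of cortical and some thalamic neurons, had 231 and 305 CPM in low-Prkcd spots, 597 and 651 CPM in Prkcd-high spots and 654 and 635 CPM in all other spots, and was the lowest in low-Prkcd spots in both sections (-1.31 ± 0.08, adjusted p = 4.4e-08, and -1.30 ± 0.08, adjusted p = 1.9e-07).

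Of 6 genes of GABAergic neurons 3 were called higher than in Prkcd-high spots and none lower. Slc32a1, the vesicular transporter of GABA and glycine, had 219 and 281 CPM in low-Prkcd spots, 76.2 and 128 CPM in Prkcd-high spots and 207 and 251 CPM in all other spots (1.31 ± 0.10 over Prkcd-high spots, adjusted p = 3.4e-07). Gad1, which makes GABA, had 334 and 324 CPM in low-Prkcd spots, 113 and 191 CPM in Prkcd-high spots and 279 and 325 CPM in all other spots (1.19 ± 0.12, adjusted p = 8.8e-06), and Gad2 changed by 1.02 ± 0.10 (adjusted p = 4.6e-06). Against all other spots these 3 did not pass the test (0.14 ± 0.07 for Slc32a1, 0.18 ± 0.10 for Gad1 and 0.08 ± 0.07 for Gad2), and 1 of the 6 genes, Dlx1, was lower. Dlx1, a factor of forebrain interneurons, had 1.66 and 7.24 CPM in low-Prkcd spots and 7.84 and 12.8 CPM in all other spots (-1.55 ± 0.31, adjusted p = 0.0053, and -0.82, adjusted p = 0.44, without section 1).

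Ion channel genes split by subunit. Of 7 T-type calcium and HCN pacemaker channel genes, which set burst firing, 3 were called higher and 3 lower than in Prkcd-high spots. Hcn4 had 12.5 and 13.8 CPM in low-Prkcd spots, 46.2 and 27.9 CPM in Prkcd-high spots and 8.12 and 10.4 CPM in all other spots (-1.67 ± 0.26, adjusted p = 3.9e-04). Among the T-type genes Cacna1g, the main form of relay neurons, was lower, with 36.5 and 43.5 CPM against 82.2 and 79.1 CPM in Prkcd-high spots (-1.11 ± 0.13, adjusted p = 3.0e-05). Cacna1i, the main form of the reticular nucleus, was higher, with 38.4 and 41.5 CPM against 18.6 and 26.6 CPM (0.85 ± 0.16, adjusted p = 0.0019).

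GABA-A receptor genes also went both ways. Of 12 tested, 5 were higher and 3 lower than in Prkcd-high spots. Gabra4, the alpha partner of the delta subunit in thalamus, had 42.6 and 47.4 CPM in low-Prkcd spots, 208 and 138 CPM in Prkcd-high spots and 54.5 and 58.9 CPM in all other spots (-2.09 ± 0.16, adjusted p = 4.1e-07), as Gabrd did above. Gabra5 had 39.6 and 39.5 CPM in low-Prkcd spots, 19.2 and 27.3 CPM in Prkcd-high spots and 51.3 and 47.6 CPM in all other spots (0.81 ± 0.17, adjusted p = 0.0051). Without the section 1 sum of low-Prkcd spots 2 of the 12 were higher and 2 lower than in Prkcd-high spots.

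Of 16 potassium channel genes 8 were lower than in Prkcd-high spots and 1 was higher, 5 and 1 were without section 1, and 9 and 2 without section 2. Kcnc2, a fast Kv3 channel, had 102 and 112 CPM in low-Prkcd spots, 265 and 242 CPM in Prkcd-high spots and 97.6 and 100.4 CPM in all other spots (-1.33 ± 0.08, adjusted p = 5.5e-08). Kcnc4, of the same family, had 68.3 and 77.0 CPM in low-Prkcd spots, 35.7 and 51.2 CPM in Prkcd-high spots and 78.2 and 79.0 CPM in all other spots (0.75 ± 0.14, adjusted p = 0.0015). Kcnq3, which carries the M-current, had 50.4 and 44.8 CPM against 99.7 and 85.1 CPM in Prkcd-high spots (-1.01 ± 0.11, adjusted p = 1.1e-05).

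Genes of fast-firing neurons with large axons were raised over the brain at large. Of 8 such genes 5 were higher than in all other spots and none lower, and relative to Prkcd-high spots 3 were higher and 2 lower. Vamp1, a vesicle protein of fast terminals, had 719 and 546 CPM in low-Prkcd spots, 445 and 473 CPM in Prkcd-high spots and 420 and 324 CPM in all other spots (0.44 ± 0.09, adjusted p = 0.0033, and 0.79 ± 0.08, adjusted p = 1.7e-05). Syt2 changed by 0.97 ± 0.07 over all other spots, which had 116 and 65.8 CPM (adjusted p = 3.3e-06), and Nefm, a neurofilament gene, by 0.62 ± 0.05 (adjusted p = 6.1e-06). Nefh, the heavy neurofilament gene, had 208 and 172 CPM in low-Prkcd spots, between 283 and 289 CPM in Prkcd-high spots and 156 and 121 CPM in all other spots. Without section 1, 4 of the 8 were higher than in all other spots.

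Other leading rises over all other spots were Rasgrp2, a calcium-regulated activator of Rap, Patj, a polarity protein, Tunar, Tmem91 and Plcxd2. Rasgrp2 had 100.5 and 103 CPM in low-Prkcd spots, 44.4 and 57.8 CPM in Prkcd-high spots and 47.1 and 62.7 CPM in all other spots (1.01 ± 0.13 and 0.97 ± 0.09). Patj had 81.4 and 63.9 CPM in low-Prkcd spots, below the 150 and 132 CPM of Prkcd-high spots and above the 45.2 and 37.4 CPM of all other spots (-0.97 ± 0.09 and 0.85 ± 0.09). Tunar, a regulatory transcript of neurons, lay between the classes in the same way (-0.54 ± 0.11 and 0.85 ± 0.09). Plcxd2 lost its call over all other spots without section 1 (0.63, adjusted p = 0.10, in place of 0.87).

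Among the more abundant genes, Tbr1 fell the most relative to all other spots. Tbr1, a transcription factor of deep cortical neurons, had 20.3 and 18.4 CPM in low-Prkcd spots, 27.3 and 19.3 CPM in Prkcd-high spots and 64.0 and 44.2 CPM in all other spots (-1.54 ± 0.12 relative to all other spots, adjusted p = 3.4e-06). Lamp5 (-1.47 ± 0.16), the neuronal factors Neurod6 (-1.40 ± 0.14) and Neurod2 (-1.30 ± 0.11), Kcnf1 (-1.33 ± 0.13), Vxn (-1.32 ± 0.14), the telencephalic adhesion gene Icam5 (-1.25 ± 0.11) and Kcnj4 (-1.20 ± 0.11) fell too. Of 8 isocortex genes 6 were lower and none higher (median -1.19), and of 9 hippocampus genes 5 were lower and none higher (median -0.49). Against Prkcd-high spots 3 of the isocortex genes were lower, among them Rorb (-1.36 ± 0.15, adjusted p = 1.2e-05), a layer 4 gene that the thalamus also makes. Over all 13035 genes this comparison called 956, and 309 without the section 1 sum of low-Prkcd spots, with which 5 isocortex genes and 1 hippocampus gene were lower.

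Neuropeptide genes went both ways. Of 15, 4 were higher and 2 lower than in Prkcd-high spots, and 2 were higher and 7 lower than in all other spots. Without the section 1 sum of low-Prkcd spots 1 was higher and 5 lower than in all other spots, and without that of section 2 there were 4 each way. Adcyap1, which encodes PACAP, had 43.6 and 40.8 CPM in low-Prkcd spots, 8.70 and 9.31 CPM in Prkcd-high spots and 24.2 and 16.1 CPM in all other spots (2.21 ± 0.23, adjusted p = 8.6e-06, and 1.02 ± 0.13, adjusted p = 1.7e-04). Sst, which encodes somatostatin, had 427 and 444 CPM in low-Prkcd spots, 139 and 311 CPM in Prkcd-high spots and 294 and 544 CPM in all other spots (1.09 ± 0.17 over Prkcd-high spots, adjusted p = 4.0e-04). Nts, which encodes neurotensin, had 12.2 and 30.3 CPM against 3.60 and 14.6 CPM in Prkcd-high spots (1.28 ± 0.29, adjusted p = 0.0083). Cck, a peptide of cortical and thalamic neurons, had 407 and 527 CPM in low-Prkcd spots, 773 and 939 CPM in Prkcd-high spots and 587 and 729 CPM in all other spots, and was lower in both comparisons (-0.93 ± 0.05 and -0.49 ± 0.05). Vip fell by 1.13 ± 0.17 relative to all other spots (adjusted p = 6.6e-04).

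Calcium-binding proteins, including Calb2 above, gave 3 genes higher and 3 lower of 9 relative to Prkcd-high spots, and 1 in each direction relative to all other spots. Without section 2 the last were 3 higher and 2 lower. Hpcal1, a neuronal calcium sensor, had 76.2 and 109 CPM in low-Prkcd spots, 30.6 and 46.5 CPM in Prkcd-high spots and 69.2 and 100.1 CPM in all other spots (1.23 ± 0.12 over Prkcd-high spots, adjusted p = 3.2e-06). Necab2 had 73.7 and 164 CPM in low-Prkcd spots against 188 and 229 CPM in Prkcd-high spots (-1.03 ± 0.16, adjusted p = 4.8e-04).

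Of 8 other protein kinase C isoforms 2 were lower than in Prkcd-high spots and none higher, and 4 were lower than in all other spots. Prkch, an isoform of the same class as Prkcd, had 9.13 and 16.5 CPM in low-Prkcd spots, 47.4 and 40.6 CPM in Prkcd-high spots and 9.14 and 13.9 CPM in all other spots (-2.04 ± 0.25, adjusted p = 3.8e-05).

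Of 12 tested genes that report Wnt signalling, Lef1 alone was called against Prkcd-high spots and none against all other spots by edgeR or DESeq2, where 1 had an unadjusted p under 0.05 in edgeR. Axin2, a feedback inhibitor and standard readout of the pathway, had 10.4 and 7.24 CPM in low-Prkcd spots, 12.6 and 10.6 CPM in Prkcd-high spots and 9.30 and 8.68 CPM in all other spots (-0.38 ± 0.26 and 0.07 ± 0.20). The letters CTTTGAT, a form of the site that Tcf7l2 and its relatives bind, were looked for on both strands of RefSeq promoters on GRCm38.p6, from 250 bases before to 50 after the start. None of the 16 genes of the 24 with a promoter in the table held it, beside 305 of 10238 tested genes (2.98%) and 1160 of 27025 genes in all (4.29%), which says only that these letters are not in this window.

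Of 12 immediate early genes, which respond to neuronal activity and to handling of the tissue, 1, Dusp1, was lower than in Prkcd-high spots (-0.78 ± 0.18, adjusted p = 0.0071, and -0.27, adjusted p = 0.73, without section 1). Relative to all other spots 9 of 12 were lower, and 2 without section 1. Egr1 had 87.4 and 49.4 CPM in low-Prkcd spots, 85.5 and 67.1 CPM in Prkcd-high spots and 175 and 104 CPM in all other spots (-0.98 ± 0.09 relative to all other spots, adjusted p = 8.7e-06). None of the 13 mitochondrially encoded genes was called in either comparison by edgeR or DESeq2, with 3 and 0 at an unadjusted p under 0.05 in edgeR against Prkcd-high and against all other spots, and 1 called against Prkcd-high spots without section 1.

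Few glial markers were called against Prkcd-high spots. Of 10 genes of mature oligodendrocytes, the cells that may also make Tcf7l2, 1 was higher than in Prkcd-high spots and 2 than in all other spots. Mbp, the main myelin protein gene, had 6165 and 5856 CPM in low-Prkcd spots, 5143 and 5094 CPM in Prkcd-high spots and 5363 and 4548 CPM in all other spots (0.19 ± 0.05, adjusted p = 0.014, and 0.30 ± 0.05, adjusted p = 7.2e-04). After thinning to 5000 UMIs its change over all other spots was -0.061. The summed level of the list was 12484 and 14630 CPM in low-Prkcd spots, 10736 and 13405 CPM in Prkcd-high spots and 11347 and 12110 CPM in all other spots, and none of its genes was at 0. Its part in the choice of spots was not tested. Bcas1, of committed precursors, was higher than in all other spots (0.34 ± 0.06, adjusted p = 0.0029) but at -0.0064 after thinning, and without any section sum left out no gene of microglia or endothelium was called in either comparison by edgeR or DESeq2. At an unadjusted p under 0.05 in edgeR, 1 of 8 microglial genes stood out against Prkcd-high spots and 5 against all other spots, and 0 and 1 of 6 endothelial genes.

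Of 10 astrocyte genes 1 was higher than in Prkcd-high spots, and 4 were higher and 3 lower than in all other spots. Without the section 1 sum 3 were higher and 1 lower than in all other spots, and without that of section 2 none was called against Prkcd-high spots. Slc6a11, the GABA transporter of subcortical astrocytes, had 474 and 400.3 CPM in low-Prkcd spots, 415 and 332 CPM in Prkcd-high spots and 304 and 232 CPM in all other spots (0.72 ± 0.05 over all other spots, adjusted p = 2.8e-06). Gfap, the filament gene of fibrous astrocytes, had 109 and 82.3 CPM in low-Prkcd spots and 187 and 124 CPM in all other spots (-0.69 ± 0.08, adjusted p = 6.9e-05). Ttr, the main transcript of choroid plexus, had 1315 and 1258 CPM in low-Prkcd spots, 1448 and 1438 CPM in Prkcd-high spots and 2511 and 2842 CPM in all other spots (-0.21 ± 0.06, adjusted p = 0.026, and -1.03 ± 0.05, adjusted p = 1.5e-07). Without the section 2 sum of low-Prkcd spots its change relative to Prkcd-high spots was not called (-0.14, adjusted p = 0.16), and after thinning it was 0.20.

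Of 5 red blood cell genes 4 were higher than in Prkcd-high spots and lower than in all other spots, and without section 1 only 1 was lower than in all other spots. Their summed level was 1111 and 1146 CPM in low-Prkcd spots, 686 and 637 CPM in Prkcd-high spots and 1533 and 1455 CPM in all other spots. The 11 low-Prkcd spots of the haemoglobin-led group described next held 10514 CPM, and the other 313 low-Prkcd spots 726 CPM. Among spots with a Tcf7l2 level of at least 5 the 4 genes changed by -0.0022 (Hbb-bt) to -0.26 (Hbb-bs) relative to Prkcd-high spots.

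The low-Prkcd spots were not alike. Clustering them on their own expression, centred by section, gave 7 groups, which are called by their leading genes. They get no test because the same spots formed the groups and picked those genes. Genes with under 0.5 UMIs per spot in both sections, Barhl1 among them, did not enter the clustering. With a resolution of 0.5 in place of 1 there were 6. A group of 69 spots (53 and 16 in sections 1 and 2) was led by Spp1, Kcng4 and Pvalb, with 104, 44.7 and 830 CPM in it against 27.9, 12.03 and 288 CPM in the other low-Prkcd spots. It also had the highest Gad1 of the 7 groups, with 493 CPM. Another group, of 66 spots (54 and 12), was led by Slc6a3 (63.7 against 4.43 CPM), Ddc (41.9 against 14.6 CPM) and Pbx3 (50.6 against 20.0 CPM). Its Slc6a3 came to 76.4 CPM in section 1 and 13.1 CPM in section 2, and only 18.2% of its spots held a Slc6a3 UMI.

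The next group, of 61 spots (47 and 14), was led by Myoc (104 against 23.9 CPM), Pcolce (34.6 against 10.6 CPM), C4b (38.7 against 12.5 CPM) and Gfap (226 against 79.7 CPM). In these spots the summed level of the mature oligodendrocyte genes was 19441 CPM, against 11817 CPM in the other low-Prkcd spots, and the meningeal fibroblast genes summed to 99.8 against 45.6 CPM. A Myoc UMI was seen in 37.7% of these spots, and in section 2 Myoc was at 29.6 against 22.8 CPM. Their median depth of 15706 UMIs was the lowest of the 7 groups. The group of 48 spots was led by Barhl1 (40.0 against 11.9 CPM), Lhx9 (95.2 against 33.8 CPM), Tpbg (115 against 42.8 CPM) and Nxph4 (80.1 against 35.1 CPM). It held several of the genes that marked low-Prkcd spots in both comparisons, and 43 of its spots were in section 1 and 5 in section 2. In section 2 Tpbg (25.4 against 25.7 CPM) and Nxph4 (12.7 against 21.5 CPM) did not lead. Barhl1 (38.1 against 6.25 CPM) and Lhx9 (76.2 against 31.2 CPM) did.

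The group of 37 spots (21 and 16) was led by Arhgap36 (43.5 against 5.56 CPM), Gpx3 (146 against 31.7 CPM), Ngb (85.6 against 18.8 CPM), Nts (44.8 against 12.7 CPM) and Baiap3 (173 against 52.0 CPM). It had 692 CPM of Calb2 and the highest Cbln2, with 231 CPM. The group of 32 spots (17 and 15) was led by Gbx2 (86.1 against 7.55 CPM), Ramp3 (221 against 30.7 CPM), Lef1 (46.9 against 7.55 CPM), Rgs16 (93.9 against 17.0 CPM) and Ntng1 (228 against 46.9 CPM). Here the shared thalamus genes summed to 1679 CPM, against 533 CPM in the other low-Prkcd spots and 2827 and 2623 CPM in the Prkcd-high spots of sections 1 and 2. These spots had the highest Calb2 (749 CPM), Slc17a6 (235 CPM) and Prkcd (111 CPM) of the 7 groups, and the lowest Gad1 (177 CPM). The last group, of 11 spots (10 and 1), was led by the haemoglobin genes Hbb-bt, Hba-a1 and Hba-a2.

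**Figure D4:**
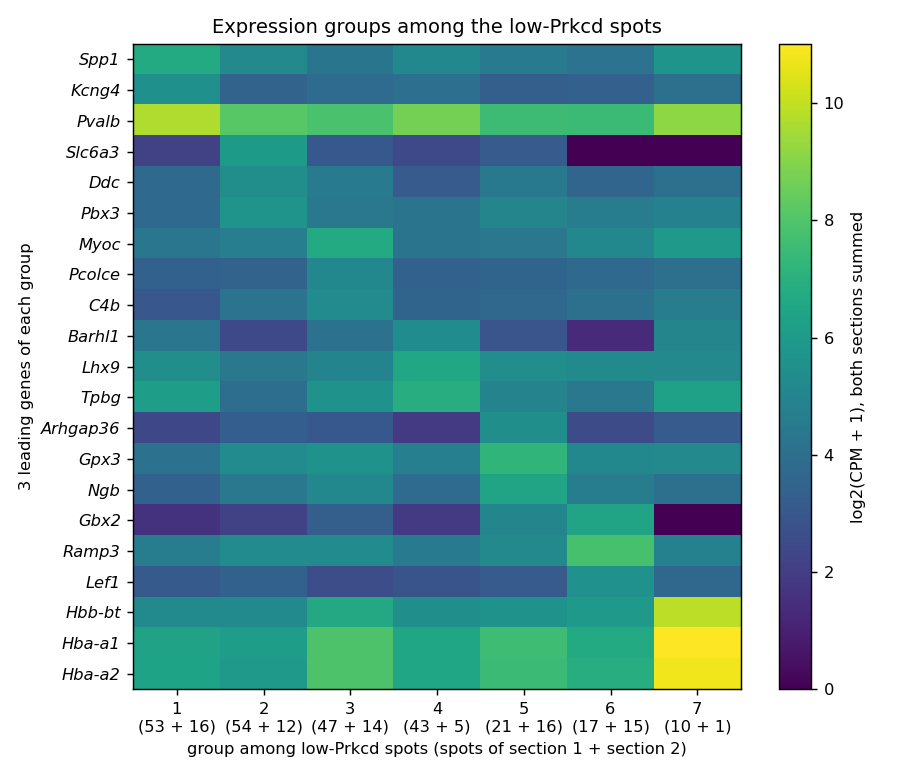
Level of the 3 leading genes of each group of low-Prkcd spots (colour, log2(CPM + 1), both sections summed) in the 7 groups, with the number of spots from sections 1 and 2 under each group. Each group is the brightest in its own 3 genes, which were picked for their excess in that group. Gbx2, Ramp3 and Lef1 are bright in group 6.

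Between single spots the most variable genes were those of blood, myelin and interneurons. Hbb-bs, a beta-globin gene, had a median of 2.51 and 3.72 UMIs per 10000 and a maximum of 123 and 55.0. The myelin gene Mbp had a median of 60.2 and 55.3 and a maximum of 384 and 189. Calb2 had a median of 1.76 and 2.50, a 90th percentile of 5.55 and 9.31 and a maximum of 22.5 and 15.9. The interneuron genes Sst (median 2.87 and 3.61, maximum 15.9 and 15.5), Gad1 (2.57 and 2.62, maximum 16.3 and 12.5) and Pvalb (3.30 and 1.86, maximum 20.3 and 7.83) were also among the 15. Others named by the rule were Hba-a1, Hba-a2, Hbb-bt, Ptgds, Fth1, Mobp, Apod and the small RNA Bc1.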

How the data were processed

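The deposited values were UMI counts per gene and spot, whole numbers with no normalization by the authors. Per the file headers, Space Ranger 1.2.2 wrote section 1 and Space Ranger 2.0.1 wrote section 2; for both, the submitters' processing notes give 2.0.1 with mm10. Version and section cannot be told apart. Spot positions were not used. Sums per section and class held 1504214 UMIs (Prkcd-high, section 2) to 52735919 UMIs (all other spots, section 2). They were fitted with edgeR 4.0.16 (R 4.3.3), TMM factors, filterByExpr and the quasi-likelihood F test, with 2 residual degrees of freedom and 12.61 from the prior, and the SE is the size of the log2 change over the square root of F. Spots were clustered with leidenalg 0.10.2 (1000 genes, 15 principal components, 15 neighbours, resolution 1). Doublets were not called, because spots are not single cells. The fit was tested on simulated data. Alternatives included DESeq2 1.42.0.

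The spots, the gene lists and the tests were chosen with earlier results of these data known. The text names, for each comparison, the called genes of 10 greatest increases and 10 greatest decreases that kept 1 sign in both sections, from an average log2 CPM of 5 upward. To these come the 10 largest of those at least 2-fold higher in both comparisons (from an average log2 CPM of 3 upward), up to 4 called genes of each list and the 15 most variable genes with at least 0.5 UMIs per spot. Genes without a symbol were passed over, and a few genes that the rule picks are not reported here. Other listed genes, and levels given per spot group, were named after their values were seen. Positions of genes come from RefSeq (GRCm38.p6).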

Additional observations from a re-analysis of the deposited data

How the results depend on the processing

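The calls rest on 2 sections, and the section 1 sum of low-Prkcd spots holds most of their UMIs. The totals of 1583 genes called against Prkcd-high spots and 956 against all other spots became 931 and 361 with DESeq2 (at least 2-fold higher 110 and 21, at least 2-fold lower than all other spots 53), and 16 genes, 15 of the 24, passed in both. Without the section term they were 357 and 3 (2-fold higher 54 and 2, 2-fold lower 178 and 1, both 1). With a Tcf7l2 minimum of 5 they were 738 and 479, and 22 genes, 10 of the 24, passed in both. With each spot thinned to 5000 UMIs, which leaves fewer UMIs in every sum, they were 722 and 66 (2-fold higher 104 and 5, 2-fold lower than all other spots 2, both 4). Leaving out 1 low-Prkcd sum gave 837 to 1652 and 309 to 970, with 104 to 221 and 21 to 53 at least 2-fold higher, 217 to 297 and 55 to 147 at least 2-fold lower, and 11 to 43 in both. A single section gives no test, and the leave-out fits hold 1 low-Prkcd sum, so their calls do not measure how low-Prkcd spots vary between sections. Without TMM factors 813 genes were higher and 792 lower than in Prkcd-high spots.

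The share of low-Prkcd spots was 3.16% and 0.480% (90 and 12 spots) at a Tcf7l2 minimum of 5, 6.59% and 2.12% at a Prkcd level under 1, 7.58% and 4.24% after thinning and 10.2% and 4.16% of totals without mitochondrial genes. Of 2186 values of 185 named changes under alternatives, 1786 kept direction and call, 389 kept the direction and lost the call, and 11 changed direction, leaving out values from a single section. After thinning, relative to all other spots, Amotl1 was -0.12, Mbp -0.061, Mobp -0.028, Bcas1 -0.0064 and Kcna2 -0.016, and Ttr was 0.20 relative to Prkcd-high spots. With a Tcf7l2 minimum of 5, relative to Prkcd-high spots, Slc6a3 was -0.33, Hbb-bt -0.0022, Hba-a1 -0.17, Hba-a2 -0.24 and Hbb-bs -0.26. Among the single-section values Calb1 turned as well, to 0.0085 in section 2. Of 46 shares of spots above a list's percentile, 16 moved after thinning, 16 with a Tcf7l2 minimum of 5, 6 with a Prkcd level under 1 and 3 in spots of at least 10000 UMIs. The causes were not tested. Thinning leaves fewer UMIs and 9857 genes to test, and transcription factor genes with few UMIs carry wide counting intervals.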
